A study of Homo sapiens with 14 samples.

Results

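FOXP1 (ENSG00000114861) is a forkhead transcription factor gene on chromosome 3, and 18 of the 14865 regions bound by at least 1 NF-κB subunit in L1236 cells were assigned to it. A region belonged to FOXP1 if the gene was its closest gene or held its closest transcription start site (TSS). The gene was chosen by its large number of p52 regions, so the numbers of regions and calls, the fold enrichments and the read ratios given here are a description and were not tested. A p52 peak was called in 16 of the 18 regions and a p50 peak in 10, whereas RelB had 1 peak, at the start of the gene, and RelA had 0.

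L1236 is an established cell line from a Hodgkin lymphoma, and the labels give no treatment of the cells. Binding was measured by ChIP-seq with 2 libraries each for p50, p52, RelB and RelA (also called p65), and 6 libraries of input DNA served as control. The 2 p52 libraries were made with different antibodies, a mouse monoclonal and a rabbit polyclonal. All values in a region come from the merged replicates of a subunit, except a pair of replicate signal values for each called peak, so each subunit gave a single read count per region.

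NF-κB is a family of dimeric transcription factors. The subunits p50 and p52 are made from the longer precursors p105 and p100, can bind DNA as dimers with each other or with a Rel subunit, and lack the transactivation domain that RelA and RelB carry. RelA with p50 is the typical dimer of the canonical pathway, and RelB with p52 that of the non-canonical pathway, in which processing of p100 to p52 is regulated. FOXP1 itself takes part in B cell development and is known for its high level in a part of the large B cell lymphomas.

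FOXP1 lies on the minus strand, and all distances led to a single TSS at position 71715830 of hg18, so that lower coordinates lie deeper in the gene. The 18 regions spanned 680 kb, from chr3:71114576-71115121 to chr3:71794456-71794894. Of these, 14 were downstream of the TSS, 1 lay over it and 3 were upstream. All 14 downstream regions were inside the gene, and 13 of them were more than 100 kb from the TSS. The 2 farthest upstream regions, 59.3 kb and 78.6 kb from the TSS, had FOXP1 only as their closest TSS and another gene as the closest gene. The nearest regions assigned elsewhere were 621 kb away beyond the 3′ side of the gene, at chr3:70492781-70493173, and 212 kb away beyond the 5′ side, at chr3:72006430-72007918. The first was called for p52, and the other for p52 and RelB.

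Sequences of the bound regions were not analysed here, since no genome of their build was at hand, but RefSeq gives 6 promoter windows for FOXP1 on GRCh38.p14. The 250 bases before its outermost start are shown because a region over the FOXP1 start carried the highest p50 enrichment of the gene. They lie at chr3:71583729-71583978 on the minus strand, with matches to GGGNNNNNCC on either strand in capitals. These letters are the fixed part of the κB consensus, a 10-base motif.

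FOXP1 promoter: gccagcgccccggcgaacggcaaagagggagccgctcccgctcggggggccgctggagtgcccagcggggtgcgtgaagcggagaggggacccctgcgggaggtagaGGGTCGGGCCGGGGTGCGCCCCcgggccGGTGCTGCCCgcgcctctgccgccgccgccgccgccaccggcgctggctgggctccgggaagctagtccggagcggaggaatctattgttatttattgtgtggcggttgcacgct

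The window held 6 matches, of which several overlapped each other, all between 143 and 106 bases before the start, in a sequence of 74% G and C. This form of the motif occurred in 54.4% of 35114 promoters cut to the same length and in 3 of the 6 FOXP1 windows, so its presence is common. The stricter form GGGANNTTCC was found in 1.4% of the promoters and in 0 of the 6 FOXP1 windows. The builds differ, and the window was therefore not placed relative to the summits of the bound regions. On hg18, the p50 summit of the region over the TSS lay 769 bp upstream of it. The p52 and RelB summits lay 373 and 365 bp into the gene. If the start on both builds is the same, the window holds none of these summits, and its matches are not at the p50 peak. Whether it is the same was not tested.

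The calls were those of the authors, who required reproducibility between replicates and significance of the merged peak. p52 was called in 16 of the 18 FOXP1 regions, or 88.9%, compared to 73.3% of all regions. p50 was called in 10, or 55.6%, below the 73.8% of all regions. RelB was called in 1 region, compared to 26.8% of all regions. RelA was called in 0, while 3.31% of all regions had a RelA call, and a count of 0 among 18 regions still allows a share of up to 16.7%. Thus, the gene had many regions for p52, fewer for p50 and 1 for RelB. RelA calls were rare in all regions, so a count of 0 does not set the gene apart.

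By combination, 8 regions were called for p52 alone, 7 for p50 and p52, 2 for p50 alone, and 1 for p50, p52 and RelB. The p52-alone class made up 44.4% of the FOXP1 regions and 19.8% of all regions. The class with p50 and p52 but no Rel subunit was at 38.9% in FOXP1 and at 31.8% in all regions. Regions called for p50 alone were 11.1% of the FOXP1 regions and 21.2% of all regions. Regions deep inside genes differ from the average region, and the 14 FOXP1 regions inside the gene and more than 10 kb from the TSS were therefore set beside all 4348 regions of this kind. Among the latter, 81.8% were called for p52, 26.7% for p52 alone and 24.7% for RelB. Of the 14 FOXP1 regions, 13 were called for p52, 6 for p52 alone and 0 for RelB. Distance was measured from a single FOXP1 TSS. Some of the 6 RefSeq promoter windows lie far inside the gene, and distances to their starts were not measured. Some of the 14 regions may therefore lie closer to another FOXP1 start.

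**Figure D1:**
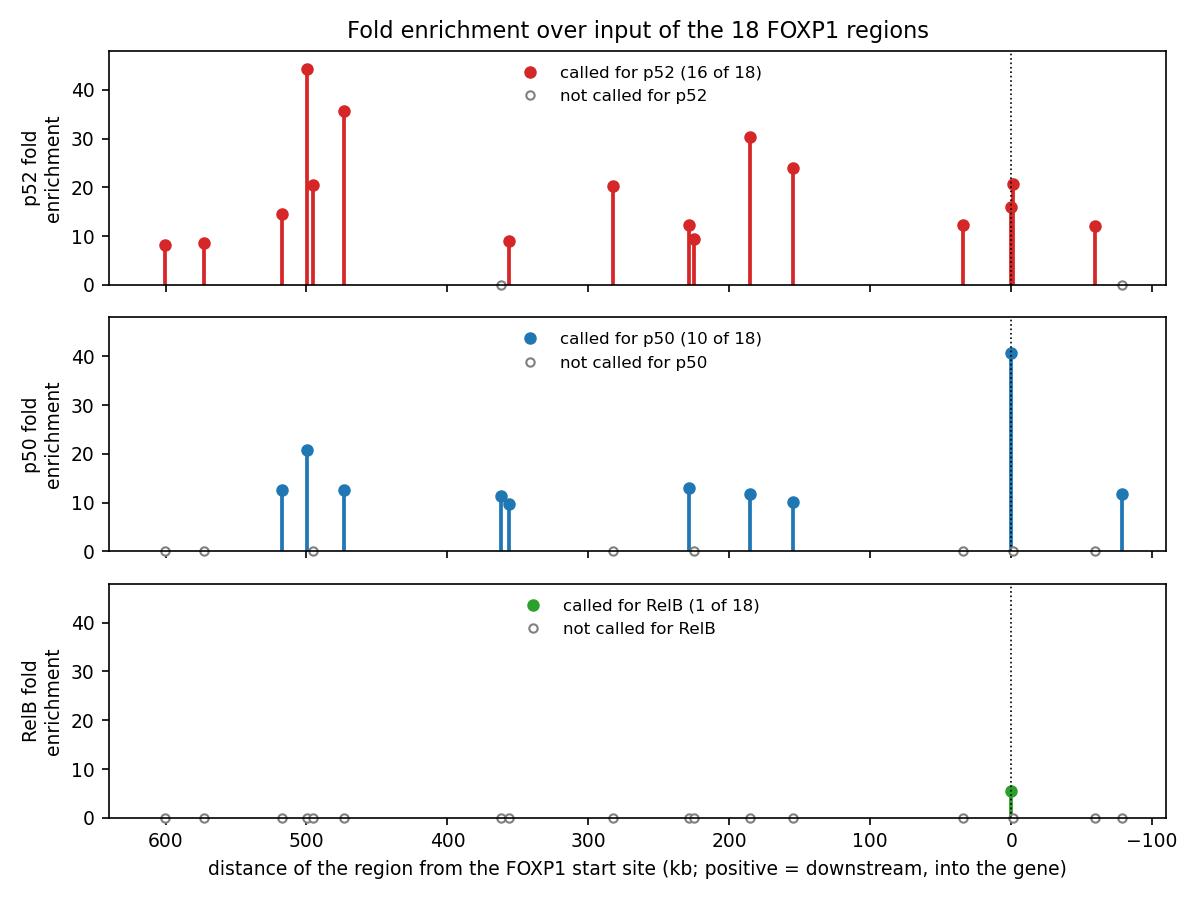
Fold enrichment over input (vertical axes) of p52, p50 and RelB against distance from the FOXP1 start site in kb, with filled points for called regions and open points at 0 for regions without a call, whose enrichment is not given. p52 peaks ran along the whole gene and were highest 499.4 kb into it, p50 was highest at the start site, and the single RelB peak reached 5.48.

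The fold enrichment compares the peak height with input. For p52 it ranged from 8.28 to 44.2 over the 16 called regions, with a median of 15.3, compared to 17.2 over all regions called for p52. For p50 it ranged from 9.74 to 40.7 over 10 regions, with a median of 12.2, compared to 16.8 over all regions called for p50. Hence, the typical FOXP1 peak was not among the strong ones: 7 of 16 p52 peaks and 2 of 10 p50 peaks were above the median of their subunit.

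The strongest p52 peak of the gene was 499.4 kb downstream of the TSS, at chr3:71214969-71216410. This region of 1442 bp held 488 p52 reads, 190 p50 reads, 30 RelB reads and 24 RelA reads. Its p52 enrichment of 44.2 was higher than or equal to 92.0% of all called p52 peaks, and 177 fragments overlapped at the summit. p50 was also called there, with an enrichment of 20.7, and both summits were 2 bp apart. The p52 share of the p50 and p52 reads was 72.0%, with an exact binomial 95% interval of 68.4 to 75.3%, which covers counting error only.

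This region was part of the densest stretch in the gene. Only 2428 bp separated it from the next region, chr3:71218839-71220141, which was called for p52 alone with an enrichment of 20.4. The latter held 146 p52 reads but 34 p50 reads and had the highest p52 to p50 ratio among the 10 regions with at least 100 reads of both subunits together. Its p52 share was 81.1% (95% interval, 74.6 to 86.6%). A further region 473.4 kb from the TSS followed, called for both subunits, with a p52 enrichment of 35.7 and a p50 enrichment of 12.5. It held 279 p52 and 103 p50 reads. From there towards the TSS, 111 kb of the gene were without a region.

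Regions close to each other differed in their calls at 3 further places. At 362.3 kb from the TSS, p50 alone was called, with 47 p50 and 27 p52 reads, and 4506 bp closer to the TSS a region was called for p50 and p52, with 145 and 177 reads and enrichments of 9.74 and 8.98. At 228.4 kb, p50 and p52 were called with 64 and 66 reads and enrichments of 13.0 and 12.4. There, p52 alone was called in the next region, 2624 bp away, with 33 p52 and 9 p50 reads and an enrichment of 9.43. The last place was the TSS itself. In each of the 4 pairs of regions less than 5 kb apart, 1 region was called for p50 and p52, at the TSS also for RelB, and its neighbour for a single subunit.

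Between these places, p52 peaks of above-median strength lay 282.5 kb, 185.1 kb and 154.7 kb from the TSS. The region at 282.5 kb was called for p52 alone, with 75 p52 and 26 p50 reads and an enrichment of 20.4. The region at 185.1 kb had a p52 enrichment of 30.3 and a p50 enrichment of 11.7, with 128 and 39 reads and both summits at the same base. The region at 154.7 kb held 194 p52 and 75 p50 reads, with enrichments of 23.9 and 10.2. It also had the highest RelB density of the gene, 34.7 reads per kb, but no RelB call. From there towards the TSS, 120 kb were without a region, the widest gap between the 18 regions.

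The farthest regions on both sides and those at 517.2 kb and 34.4 kb had enrichments below the median of their subunit. The same held for the close pairs that began at 362.3 kb and 228.4 kb. The region 600.7 kb downstream, the deepest in the gene, had 44 p52 and 20 p50 reads and the lowest p52 enrichment, 8.28. Its neighbour at 572.5 kb had 66 p52 and 33 p50 reads and an enrichment of 8.60. At 517.2 kb, next to the densest stretch, 67 p52 and 47 p50 reads gave enrichments of 14.6 and 12.5. The p52-alone region 34.4 kb from the TSS, the only one in the gene between 10 and 100 kb, held 39 p52 and 22 p50 reads and reached 12.3. On the other side, the region 59.3 kb upstream was called for p52 alone, with 62 p52 and 29 p50 reads and an enrichment of 12.1. The most distant upstream region was called for p50 alone, with 41 p50 reads, 38 p52 reads and a p50 enrichment of 11.8.

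**Figure D2:**
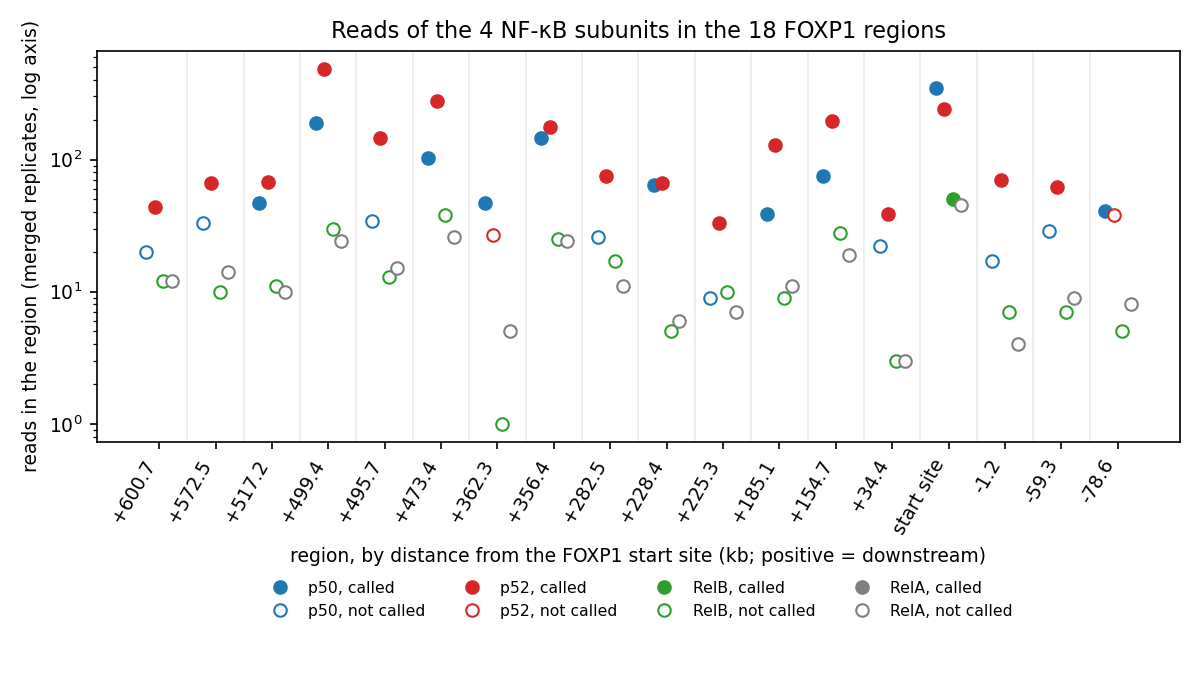
Reads of p50, p52, RelB and RelA (log axis) in each of the 18 FOXP1 regions, ordered from deep in the gene to upstream of it, with filled points where the subunit was called and open points where it was not. p52 reads exceeded p50 reads in 15 of 18 regions, and RelB and RelA reads stayed at 50 or below. The median p52 share of the p50 and p52 reads over all regions was 51.8%.

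The region over the TSS, chr3:71714526-71716897, differed from the others in several respects. It was the widest of the 18, with 2372 bp, and wider than or as wide as 96.8% of all regions. It was the only one of the 18 with calls for 3 subunits, with 350 p50, 243 p52, 50 RelB and 45 RelA reads. p50 had its highest enrichment of the gene there, 40.7, at or above 93.3% of all called p50 peaks. The p52 enrichment was 16.0 and that of RelB 5.48, compared to a median of 9.08 over all 3984 RelB peaks.

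The summits of this region were apart. p50 peaked 769 bp before the TSS, whereas p52 and RelB peaked 373 and 365 bp into the gene. The p50 and p52 summits were thus 1142 bp apart, and those of p52 and RelB 8 bp. In the 7 other regions called for both p50 and p52, the summits were 0 to 35 bp apart, with a median of 10 bp. Of all 7643 regions called for both, 4.7% had summits more than 250 bp apart. The next region upstream, chr3:71717045-71717760, began 147 bp beyond the region over the TSS and was called for p52 alone, with 70 p52 and 17 p50 reads. Its p52 summit, with an enrichment of 20.6, lay 1404 bp upstream of the TSS and 635 bp from the p50 summit. The table lists the most significant peak of a subunit per region only, and whether p52 had a weaker peak at the p50 summit was not tested.

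**Figure D3:**
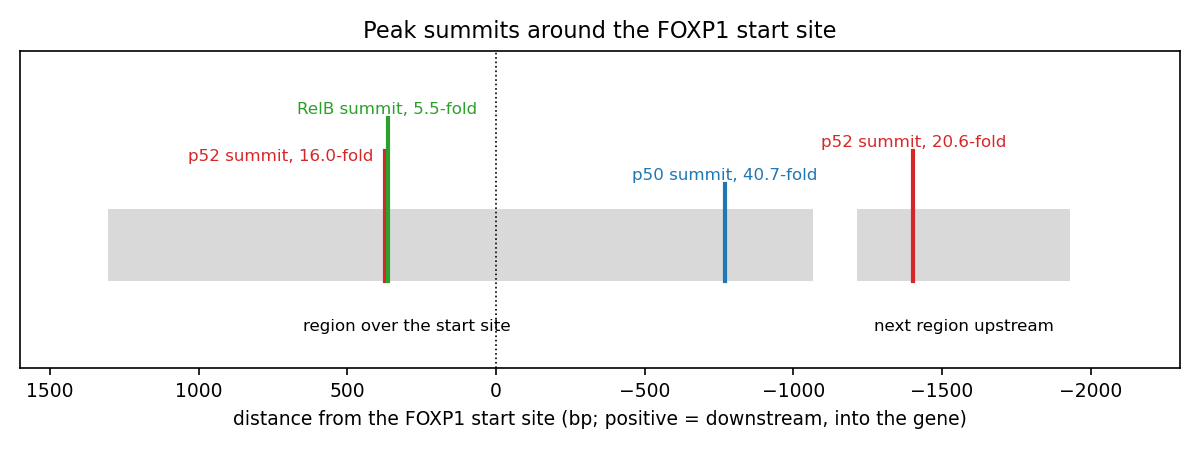
Positions of the peak summits around the FOXP1 start site (horizontal axis in bp, positive into the gene), with grey bars for the 2 regions, lines for the summits of p50, p52 and RelB and the fold enrichment beside each. The p50 summit lay 769 bp upstream of the start site, and the p52 and RelB summits 373 and 365 bp downstream.

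The balance of p52 and p50 reads was next compared across the gene. The median region of the whole table had a p52 share of 51.8%. Summed over the 18 FOXP1 regions, 2242 p52 and 1291 p50 reads were counted, a share of 63.5% (exact 95% interval, 61.8 to 65.05%). Without the region over the TSS, the share was 68.0% (66.3 to 69.7%). Region by region, the interval lay above the median share in 11 regions, held it in 5 and lay below it in 2. The same count was not made over all regions, so it does not show how far FOXP1 departs from them.

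On the log2 scale, with 1 read added to each count and relative to the median ratio of all regions, the FOXP1 regions had a median p52 to p50 ratio of 0.98 and ranged from -0.88 to 1.97. At least 2-fold above the median ratio were 8 of the 18 regions, or 44.4%, compared to 14.2% of all regions. At least 2-fold below it were 0 of 18, compared to 19.4% of all regions. Among the regions inside genes and more than 10 kb from a TSS, 19.2% were at least 2-fold above, and 7 of the 14 FOXP1 regions of this kind were. Since the gene was selected on its p52 regions, an excess of p52 reads is part of the choice and is not a separate result.

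The lowest ratio among the 10 regions with at least 100 reads was found over the TSS, at -0.63, with a p52 share of 41.0% (37.0 to 45.1%). TSS regions in general had more p50: the median of all 2447 regions over a TSS was -0.96, and 47.3% of them were at least 2-fold below the median ratio. The FOXP1 TSS region was thus less skewed to p50 than the typical TSS region. Only the p50-alone region at 362.3 kb was lower in FOXP1, at -0.88, with few reads and a p52 share of 36.5% (25.6 to 48.5%).

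**Figure D4:**
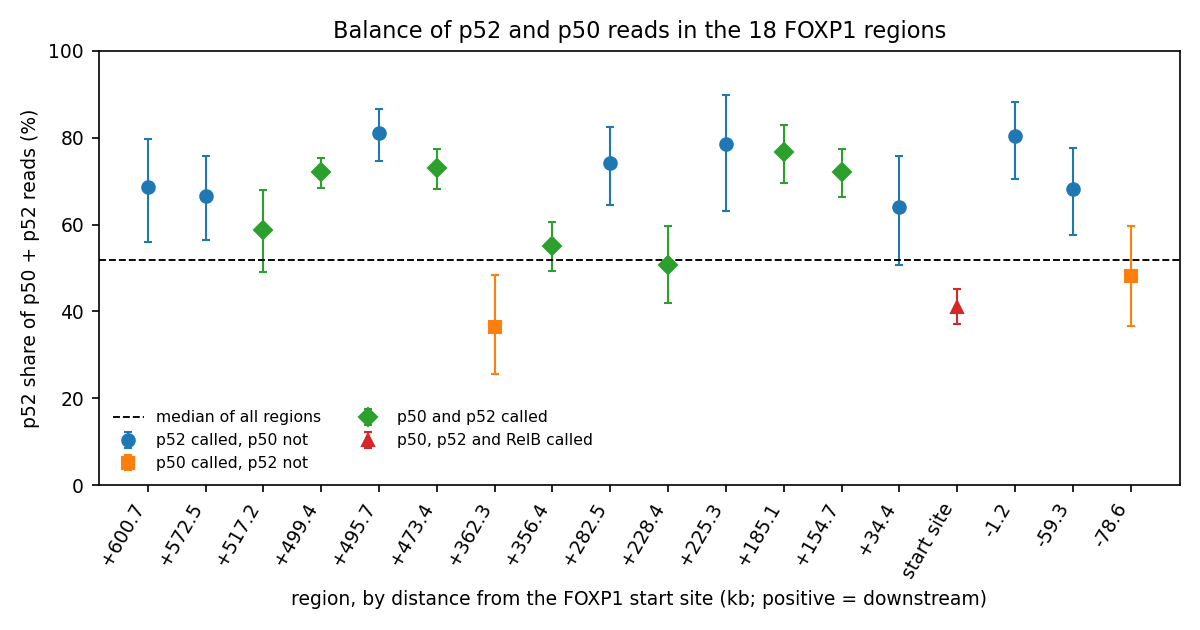
p52 share of the p50 and p52 reads (percent) in each of the 18 FOXP1 regions, with exact binomial 95% intervals for counting error and symbols for the calls; the dashed line is the median share of all regions, 51.8%. The intervals of 11 regions lay above the line, and those of the region over the start site and of the region 362.3 kb into the gene lay below it. This count was not made over all regions.

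The absence of a call was set against the reads. In the 8 p52-alone regions, p50 counts ranged from 9 to 34 reads, with a median of 24, while p52 counts ranged from 33 to 146, with a median of 64. All 8 had fewer p50 reads per kb than 59.5, the 5th percentile of all regions called for p50. Of all p52-alone regions, 29.7% were at or above this value. The call did not separate the regions cleanly within the gene, as 3 of the 8 had more p50 reads per kb than the region 185.1 kb from the TSS, which was called for p50 at 39.8 reads per kb. Likewise, the p50-alone region 78.6 kb upstream had 86.6 p52 reads per kb, more than 5 of the 16 regions called for p52.

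In the 17 regions without a RelB call, RelB counts ranged from 1 to 38 reads, with a median of 10, and RelA counts from 3 to 26, with a median of 11. In 15 of the 17, RelB was below 22.5 reads per kb, the 5th percentile of all regions called for RelB, while 27.3% of all regions without a RelB call were at or above it. Both RelB libraries had fewer mapped reads than the size to which libraries were to be reduced, and fewer than the RelA libraries, so raw RelB and RelA counts are not on the same depth and the comparison with all regions is the one to read. RelB reads outnumbered RelA reads in 9 of the 18 regions, compared to 66.2% of all regions. Relative to the median of all regions, the log2 ratio of RelB to p52 reads was lower in 15 of the 18 regions, with a median of -0.72, and that of RelB to RelA reads had a median of -0.39. Since the gene was chosen by its p52 regions, a low ratio to p52 is in part set by the choice. Over all regions inside genes more than 10 kb from a TSS the median RelB to p52 ratio was -0.23. It was -0.44 over all p52-alone regions, compared to -0.70 over those of FOXP1. These relative ratios set FOXP1 against the other regions of the same libraries.

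RelB was also examined at the stronger p52 peaks. In the whole table, 4452 regions had a p52 enrichment of at least 20, a limit set with the values in view, and 50.5% of these were called for RelB at the same library depth. FOXP1 had 7 such regions, of which 0 were called for RelB. The p52 enrichment of these 7 ranged from 20.4 to 44.2, while in the whole table it ran up to 117. The 2 sets were thus not matched in strength. Regions of 1 gene are also not replicates, and a difference in RelB calls was not tested. The RelB density of the 7 regions ranged from 9.17 to 34.7 reads per kb, with a median of 20.4, and the median over all regions with such a p52 enrichment was 31.2. The region with the strongest p52 peak held 20.8 RelB reads per kb. RelB had fewer reads in the regions of the table than p50 and p52, 470788 compared to 1654137 and 1810792, and RelA had 315151.

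The replicate signal values were given for called peaks only, and the table does not tell which column belongs to which antibody. Over the 16 FOXP1 regions called for p52, both columns had a Spearman correlation of 0.81 and, as log10 values, a Pearson correlation of 0.89. These are a description over regions of 1 gene, which all come from the same pair of libraries and had passed a filter on reproducibility. The median percentile among all called p52 peaks was 43.6 in the first column and 36.3 in the second. In 5 regions both values were above the median of the table, in 9 both were below and in 2 they were on either side. The strongest region, 499.4 kb from the TSS, was at the 97.7th and 93.8th percentile. The region at 356.4 kb differed most to one side, at the 9.95th and 42.4th percentile, and the region 1.2 kb upstream of the TSS to the other, at percentiles of 68.2 and 35.2.

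For p50, the median percentiles of the 2 columns were 31.2 and 40.8. The region over the TSS, which had the highest p50 enrichment, was at the 74.8th and 79.6th percentile. The region 499.4 kb from the TSS was at the 70.4th and 89.6th percentile. These were the 2 regions with both p50 values above the median of the table, 6 had both below and 2 were on either side. The region at 517.2 kb differed most to one side, at percentiles of 40.1 and 0.66, and the region at 356.4 kb to the other, at 25.3 and 57.5. The RelB peak at the TSS was low in both columns, at the 21.9th and 10.4th percentile of all RelB peaks.

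**Figure D5:**
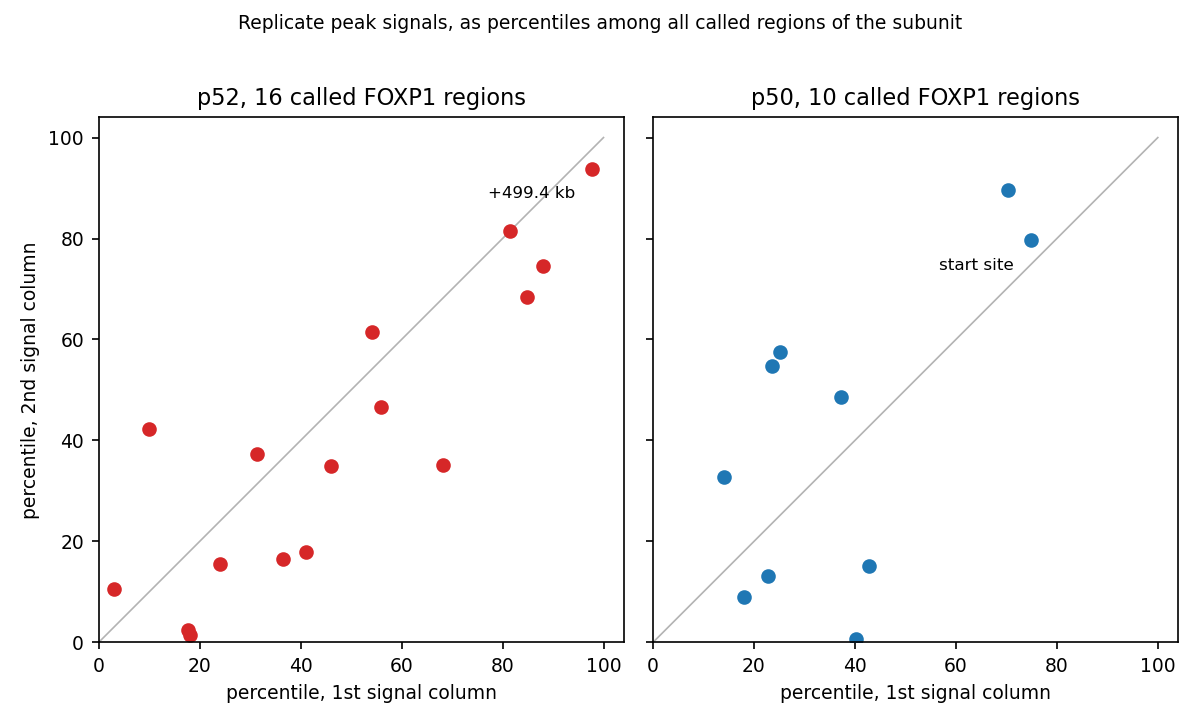
Replicate signal values of the called FOXP1 regions as percentiles among all called regions of p52 (left, 16 regions) and p50 (right, 10 regions), the first column on the horizontal and the second on the vertical axis, with a line where both are equal. The region 499.4 kb into the gene was at the upper end for p52 in both columns, and 9 of 16 p52 regions had both values below the 50th percentile.

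FOXP1 was finally compared with the other genes. Regions were assigned to 8450 genes, of which 1132 had a symbol in the study's tables. There were 10 genes with more regions than FOXP1 and 5, FOXP1 included, with 18. By p52-called regions 5 genes were ahead of it, and by p52-alone regions 1 gene. This was ETS1, which encodes a lymphoid transcription factor of the ETS family and had 11 p52-alone regions among its 21 regions. RelB was called in 4 of the 21. ETS1 was the only one of the 5 genes with the most regions that had a symbol, and 3 of these 5 had all their regions called for RelB and few for p52.

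Among the 101 genes with at least 10 regions, the median share of regions called for RelB was 27.3%, and 4 genes, FOXP1 included, were at 5.56% or lower. In 68 of these genes no region was called for RelA, so this feature was common. The median share called for p52 was 83.3%, and 37 of the 101 genes reached at least the 88.9% of FOXP1. The median log2 p52 to p50 ratio of a gene's regions was at least as high as the 0.98 of FOXP1 in 4 genes, FOXP1 included, compared to a median of 0.40.

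By the shares of their regions in each combination of calls, 3 of the 5 genes nearest to FOXP1 among those with at least 10 regions had a symbol. These were ATP5G3, which encodes a subunit of the mitochondrial ATP synthase, TNFAIP3, which encodes the NF-κB inhibitor A20, and CLNK, an adaptor of immune cells. The nearest gene, which had no symbol, had 10 regions, with p52 called in 9, p52 alone in 5, RelB in 1 and RelA in 0. ATP5G3 had 10 regions, with p52 called in 8, p52 alone in 4, RelB in 1 and RelA in 0. RelB was called in 3 of 16 regions of CLNK and in 2 of 12 of the other gene without a symbol. TNFAIP3 had 18 regions, as FOXP1 did, with p52 called in 17, p50 in 11, RelB in 4 and RelA in 1. The Euclidean distance of its shares from those of FOXP1 was 0.16, compared to 0.14 for ATP5G3 and 0.16 for CLNK. Of a list of 37 forkhead genes, the study's tables paired 2 with an identifier, so the family was not compared as a whole. The other one, FOXP2, had 2 regions, of which 2 were called for p52 and 1 for RelB.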

How the data were processed

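NF-κB binding in L1236 cells was measured by ChIP-seq. According to their methods and the submitters' processing notes, the authors aligned reads to hg18 with Bowtie, kept uniquely mapping reads, removed duplicates with SAMtools and called peaks with MACS, after a stated random reduction of all libraries to 10000000 reads. Peaks had to pass an irreproducible discovery rate between replicates (a fraction) and a false discovery rate of the merged call (a q-value), both below 0.05 as the authors state, and regions were assigned with Ensembl 54 to a gene and a TSS within 1 Mb. Both RelB libraries had fewer mapped reads than the stated 10000000 by the study's quality table, so RelB was the shallower subunit. Tool versions are not given in the sources used here. The deposited table of 14865 regions also holds read counts, the fold enrichment over input, the pileup signal at the summit and 2 replicate signal scores of unstated scale. Whether reads were counted after the sampling is not stated.

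From the deposited counts, log2 ratios were computed with 1 read added and relative to the median of all regions. Exact (Clopper-Pearson) 95% intervals and the limit of 3 counts for a count of 0 cover counting error only. Percentiles give the share of called regions at or below a value. Calculations used Python 3.11.15, pandas 2.3.3 and scipy 1.17.1 and were tested on simulated data. No test was run, as each subunit has 1 merged count per region. Of the 18 regions, those with the highest enrichment of each subunit, nearest to and farthest from the TSS, with the extreme ratios at 100 or more reads and with a RelB call were named by rule, and others were named after their values were seen. The genes named were the 5 with the most regions, the 5 nearest in their call combinations among genes with at least 10 regions and a forkhead list. The members, lists and limits were chosen with earlier results of these data known. Promoter sequences are from RefSeq (GRCh38.p14).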

Additional observations from a re-analysis of the deposited data

How the results depend on the processing

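Of 44 alternative values for 16 results, 37 stayed within 1.5 times the count, or within the counting interval or the spread of the replicate columns. A change of direction could occur only for the median log2 p52 to p50 ratio, and none of its alternatives reversed it. By assignment to the closest gene alone 16 regions remained, by the closest TSS 18 and inside the gene 15. An enrichment of at least 5 and a false discovery rate below 1e-05 changed no count of calls, but no p50 call in the table could fail the latter and the count of 0 for RelA could not fall. The highest p52 rate in the table was 1.07e-05, so a p52 call could fail only by a narrow margin. Every p52-alone region of the table had a p52 enrichment of at least 5.29, so the limit of 5 could remove none of them. A limit of 0.01 on the irreproducible discovery rate says nothing on stability, since every call in the table was already below it. These void alternatives are counted among the 37. An enrichment of at least 10, added after the data were seen, left 0 regions for RelB and 5 for p52 alone. At a fold of 1.5 in place of 2, 2 regions were skewed to p50. The median percentile of p52 strength was 36.3 by pileup in place of 41.6 by fold enrichment. The median log2 p52 to p50 ratio was 0.98, and 0.78 with 10 reads added, 1.13 by the closest gene alone and, in an alternative added later, 0.81 when regions inside genes more than 10 kb from a TSS were set against each other. With either signal column left out, the median percentile was 36.3 to 43.6 for p52, 31.2 to 40.8 for p50 and 10.4 to 21.9 for RelB. Each column alone always lies within the spread of the 2 around their mean. These alternatives are therefore also void, and they too are counted among the 37. No paired analysis was possible because replicates were merged in the table and no test was run. The 9 to 350 p50 reads per region leave wide counting intervals in the shallow regions.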
